A study of Mus musculus with 6 samples.

Results

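The iPS1 line, a mouse induced pluripotent stem (iPS) cell line, was compared with a pool of embryonic stem (ES) cell RNA on 2 of the 6 arrays of the study, and the comparison covered 41174 gene probes that stand for 18295 genes. Both arrays labelled iPS1 were used. On array 1 the iPS1 RNA carried Cy5 and the ES pool Cy3, and on array 2 the dyes were exchanged. The iPS1 cells came from a GFP+ colony of OG2 embryonic fibroblasts, a strain in which a green fluorescent protein gene follows Oct4 promoter activity. These fibroblasts had received pMX retroviruses carrying c-Myc, Klf4, Oct4 and Sox2, the 4 reprogramming factors, together with 12 subunits of TFIID (TBP with TAF13, TAF12, TAF11, TAF10, TAF9, TAF7, TAF6, TAF5, TAF4b, TAF4 and TAF3). The iPS4 and iPS5 lines, with 2 arrays each, had received the same 16 genes, and the ES cells carried the OG2 reporter. All of the cells were grown in serum with LIF on irradiated fibroblast feeder cells, so feeder RNA could be present on either side. Each line is 1 colony, the ES pool is 1 sample, and the labels do not say whether the arrays of a line had separate RNA. The p-values below therefore measure the spread between arrays, which may be technical, and they hold nothing of the variation among ES cultures.

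TFIID is the general transcription factor that contains the TATA-binding protein TBP and recruits RNA polymerase II to core promoters. Mouse pluripotent cells occur in a naive state, like the epiblast before implantation, which serum with LIF maintains, and in a primed state, like the epiblast after implantation, which expresses Fgf5 and Otx2 and is close to the primitive streak. Wnt and Nodal signals start the streak, marked by the T-box factor T, and interferons act through STAT and IRF factors on a large set of antiviral genes that pluripotent cells usually induce weakly.

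Values are log2 ratios of iPS1 over the ES pool. A gene was called where its adjusted p was under 0.05 in limma's moderated test with Benjamini-Hochberg adjustment over all probes, and a gene with several probes was read from its brightest probe. Of 41174 probes, 14942 were called (36.3%), and of 18295 genes 7809 were called (42.7%), 3932 higher in iPS1 (21.5%) and 3877 lower (21.2%). The share called in either direction differed with brightness. It was 4.1% in the 1829 dimmest genes, 29.6% in the next 7318 and 60.4% in the 7318 above these. In the next 1647 it was 66.6%, and in the 183 brightest 29%. The shares of all genes given beside the lists below are not matched to the list members for brightness. How much of a list's share of calls goes with brightness was not tested. Most differences were small. The median absolute log2 ratio over all genes was 0.105 and percentile 99 was 1.13. Beyond 2-fold, 113 genes were called higher (0.618%) and 137 lower (0.749%), and beyond 4-fold 14 were higher and 13 lower. The 2 arrays gave 7512 of the 7809 called genes the same sign. Their log2 ratios correlated with r = 0.741 across 41174 probes, which are not independent. Both arrays set the same line against the same ES pool. Gene probes above background made up 81.2% and 67.4% in the iPS1 channel of arrays 1 and 2, and 73.8% and 83.7% in the ES channel. The 11 pluripotency markers checked (Pou5f1, Sox2, Nanog, Sall4, Lin28a, Dppa4, Dppa5a, Utf1, Tdgf1, Zfp42 and Esrrb) were above background in iPS1 and in the ES pool on both arrays. The spread was also taken among the 3 lines with the ES pool counted as 1 more, a setting chosen after seeing the data. A moderated test with limma's variance shrinkage then called 0 genes, with 1726 genes at an unadjusted p under 0.05. Because iPS1 is 1 of the 3 lines, genes particular to it widen this spread, which makes them harder to call.

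**Figure D1:**
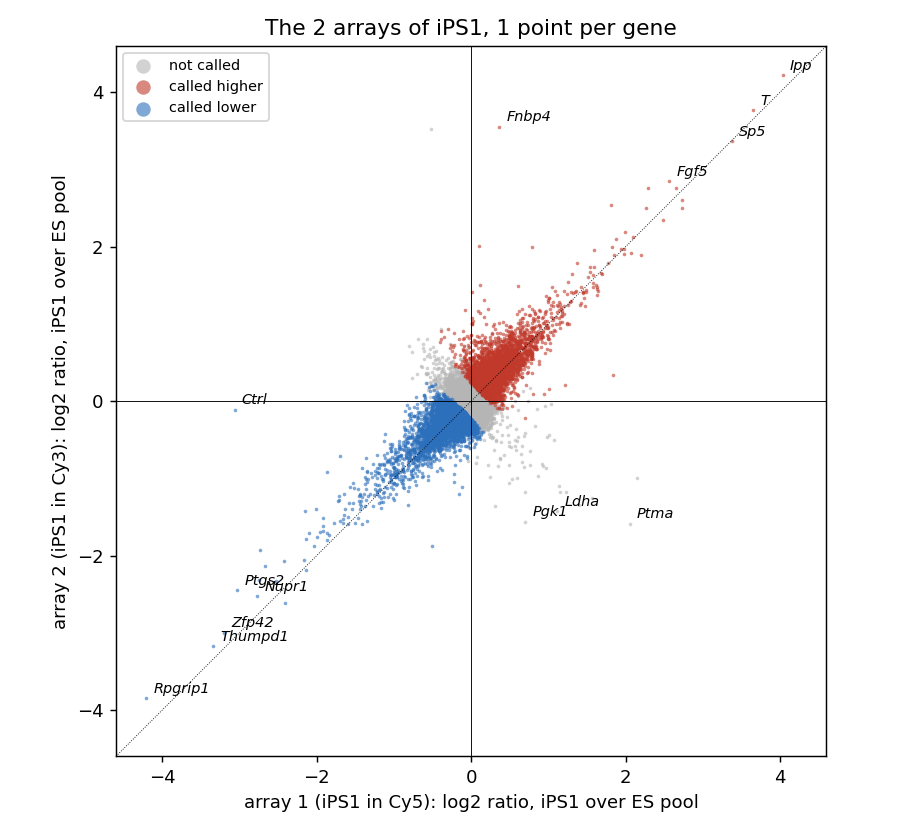
Log2 ratio of iPS1 over the ES pool on array 1 (horizontal, iPS1 in Cy5) and on array 2 (vertical, iPS1 in Cy3), 1 point per gene, coloured by call, with the dotted line marking equal values. Genes such as Ipp, T and Zfp42 lie far out near the dotted line, while a set of very bright genes such as Ptma (2.06 and -1.59) lies in the lower right with opposite signs.

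The highest genes in iPS1 were Ipp, T and Sp5. Ipp, which encodes a kelch-repeat actin-binding protein, had 4.04 and 4.22 on arrays 1 and 2, a mean of 4.13 ± 0.13 (SD, n = 2 arrays) or 17.5-fold (adjusted p = 3.05e-06). Its ratios in iPS4 and iPS5 were 4.80 and 3.77, and 3 of its 4 probes were called higher. T (Brachyury), the defining T-box factor of the primitive streak, had 3.65 and 3.77, a mean of 3.71 ± 0.085 or 13.1-fold (adjusted p = 9.8e-07). The normalized log2 signal of T was 10.47 and 10.02 in the iPS1 channels, against 6.82 and 6.25 in the ES channels. Sp5, a zinc-finger factor induced directly by Wnt signalling, had 3.38 and 3.36, or 10.3-fold (adjusted p = 1.62e-06). For all 3 genes the iPS1 channel was above the ES channel on both arrays by far more than the arrays differed.

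Other genes among the 15 highest fell into the same few groups. Fgf5, the growth factor that marks the primed epiblast, had 2.56 and 2.85 (6.52-fold). Ifi27, Irgm1, Oasl2, Rtp4 and Gbp3 are interferon-induced genes, with means of 2.67, 2.62, 2.53, 2.11 and 2.09. Gsc and Axin2, a streak organizer factor and the Wnt feedback scaffold, had means of 2.38 and 2.18. The others belong to no list used here or to the imprinted genes: Ppp4r4, a regulatory subunit of phosphatase 4, had 2.71, Dync2h1, a ciliary dynein, 2.41, the imprinted zinc-finger gene Plagl1 2.04, and Wtap, a subunit of the RNA methylation complex, 2.00. For Dync2h1 only 3 of 9 probes were called, and for Plagl1 1 of 2, so these values belong to single probes more than to whole genes. With the mean of a gene's probes, Dync2h1 had 0.32, Plagl1 1.07, Wtap 0.85, Oasl2, of whose 2 probes 1 was called, 1.29, and Ipp 1.996, all still called.

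At the other end, Rpgrip1, a gene of the photoreceptor cilium, had -4.21 and -3.85, a mean of -4.03 ± 0.25 or 16.3-fold lower in iPS1 (adjusted p = 1.36e-06), from 2 of its 5 probes. Thumpd1, an RNA acetylation cofactor, had -3.26, but its 2 probes were called in opposite directions and the iPS1 channel was above background on 1 of 2 arrays. Zfp42 (Rex1), a classic marker of naive ES cells, had -3.20 and -3.00, a mean of -3.10 ± 0.15 or 8.58-fold lower (adjusted p = 6.03e-07), on both of its probes. Its normalized log2 signal was 9.80 and 9.51 in iPS1 and 13.01 and 12.51 in the ES pool, so Zfp42 was still well above background in iPS1. The rest of the 15 lowest were Ptgs2 (cyclooxygenase, -2.74), Nupr1 (a stress-induced chromatin factor, -2.65), Anxa2 (-2.53), Chac1 (a glutathione-degrading enzyme, -2.51), Efhc2 (-2.43), Igf2 (-2.41), Oaf (-2.33), the matrix protease Mmp3 (-2.24), S100a6 (-2.16), the retinoic acid-binding protein Crabp1 (-2.11), the chemokine Cxcl1 (-1.96) and Adm (adrenomedullin, -1.95). With the mean of a gene's probes, Rpgrip1 had -1.52, Thumpd1 -1.49 and Anxa2 -1.67. All 30 of these highest and lowest genes stayed called under every alternative that kept the array spread, with adjusted p-values of up to 0.0112. With the spread among the lines none of the 30 was called, with adjusted p of 0.601 to 0.69.

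Interferon response genes were, of the 33 lists, the one with the most members called beyond 2-fold. Of 36 measured members, 29 were higher in iPS1 and 2 lower, with 17 higher beyond 2-fold, where 0.618% of all genes were. The median of the list was 0.83 in iPS1, against -0.0076 over all genes. Promoters of several members are printed because they hold the sequence that interferon-activated factors bind. The motif searched on either strand was GAAA, any 2 bases and GAAA again, which overlaps part of the interferon-stimulated response element. It was found in 18 of the 28 members with a promoter in the RefSeq table (64.3%), and in 1079 of 27025 promoters in all (3.99%). A promoter here runs from 250 bases before to 50 after the annotated start in build GRCm38.p6. A match describes these letters only. In the 60-base windows below, on the strand of the gene, capitals mark the motif or its reverse complement.
Irgm1 (chr11:48871421-48871480, minus strand): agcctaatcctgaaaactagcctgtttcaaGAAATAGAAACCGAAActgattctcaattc
Gbp3 (chr3:142559980-142560039, plus strand): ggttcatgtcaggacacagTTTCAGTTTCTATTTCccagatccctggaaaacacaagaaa
Gbp2 (chr3:142620579-142620638, plus strand): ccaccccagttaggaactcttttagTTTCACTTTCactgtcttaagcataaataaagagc
Isg15 (chr4:156200850-156200909, minus strand): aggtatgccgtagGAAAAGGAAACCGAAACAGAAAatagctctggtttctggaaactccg
Oas1a (chr5:120907526-120907585, minus strand): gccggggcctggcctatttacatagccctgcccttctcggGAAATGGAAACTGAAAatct

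These 5 members were each higher on both arrays. The motif also stood in the promoters of Ifit3 and Ifitm2, which were lower in iPS1, and of Cxcl10, which was not called. Irgm1, an immunity-related GTPase, had 2.73 and 2.51 on the arrays of iPS1 (2.62 ± 0.16, adjusted p = 5.07e-06). Gbp3 and Gbp2, guanylate-binding proteins that attack intracellular pathogens, had 1.99 and 2.19, and 1.44 and 1.41. Isg15, a ubiquitin-like modifier, had 1.45 and 1.40, and Oas1a, a sensor of double-stranded RNA, 1.49 and 1.44. On every one of these the arrays of iPS1 lay close together.

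Among the regulators, Irf1, an interferon-induced transcription factor, had 1.68 and 1.66, Stat2 0.51 and 0.59, Irf9 0.51 and 0.60, and Irf7 0.30 and 0.27. The receptor genes, looked up after the other values were seen, had small values: Ifnar1 had a mean of 0.12 and Ifngr1 -0.29. Among the effectors, Ifi27 had 2.74 and 2.61, Oasl2 2.29 and 2.76, Parp14 1.87 and 2.09, Igtp 1.98 and 1.97, Usp18, which removes ISG15 and dampens the response, 1.85 and 1.89, and the RNA sensor Ifih1 1.17 and 1.16. Tgtp2 differed widely between the arrays, at 0.78 and 2.00. Other widely used members were not called: Mx1 had -0.01, Isg20 0.12, Ifit2 0.11, Ifi44 0.06 and the chemokine Cxcl10 -0.20. The 2 members that were lower, Ifit3 at -0.66 and Ifitm2 at -0.67, are also interferon-inducible, so the list was not uniform. Many members have close relatives in the genome (the Oas, Gbp, Irg and Ifit families), and cross-hybridization between relatives was not measured here.

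Part of the interferon genes also separated iPS1 from the other lines. A gene is described as apart where the differences iPS1 minus iPS4 and iPS1 minus iPS5 were both called with the same sign. Over all genes, 2204 differed between iPS1 and iPS4 (12%), 4204 between iPS1 and iPS5 (23%), and 905 were apart as higher in iPS1 (4.95%) and 587 as lower (3.21%). Of the 36 interferon genes, 18 were apart as higher and none as lower. The list medians were 0.83 in iPS1, 0.27 in iPS4 and 0.17 in iPS5, all against the same ES pool. Gbp2 had 1.43 in iPS1, -0.03 in iPS4 and -0.14 in iPS5. Isg15 had 1.43, 0.15 and 0.23 in the same order of lines, and Irf1 1.67, 0.47 and -0.04. Irgm1 was alike in the 3 lines, at 2.62, 2.60 and 2.38, and neither difference was called (adjusted p = 0.961 and 0.274). Tgtp2 (1.39, 2.23 and 1.69) and Oas2 (1.31, 1.26 and 1.40) were likewise high in each line without being apart. The calls that a gene was apart were the least stable of all: without iPS1 array 1, 260 genes were apart as higher, and with a normexp offset of 0 none was, with 1138 at an unadjusted p under 0.05 in both differences.

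**Figure D2:**
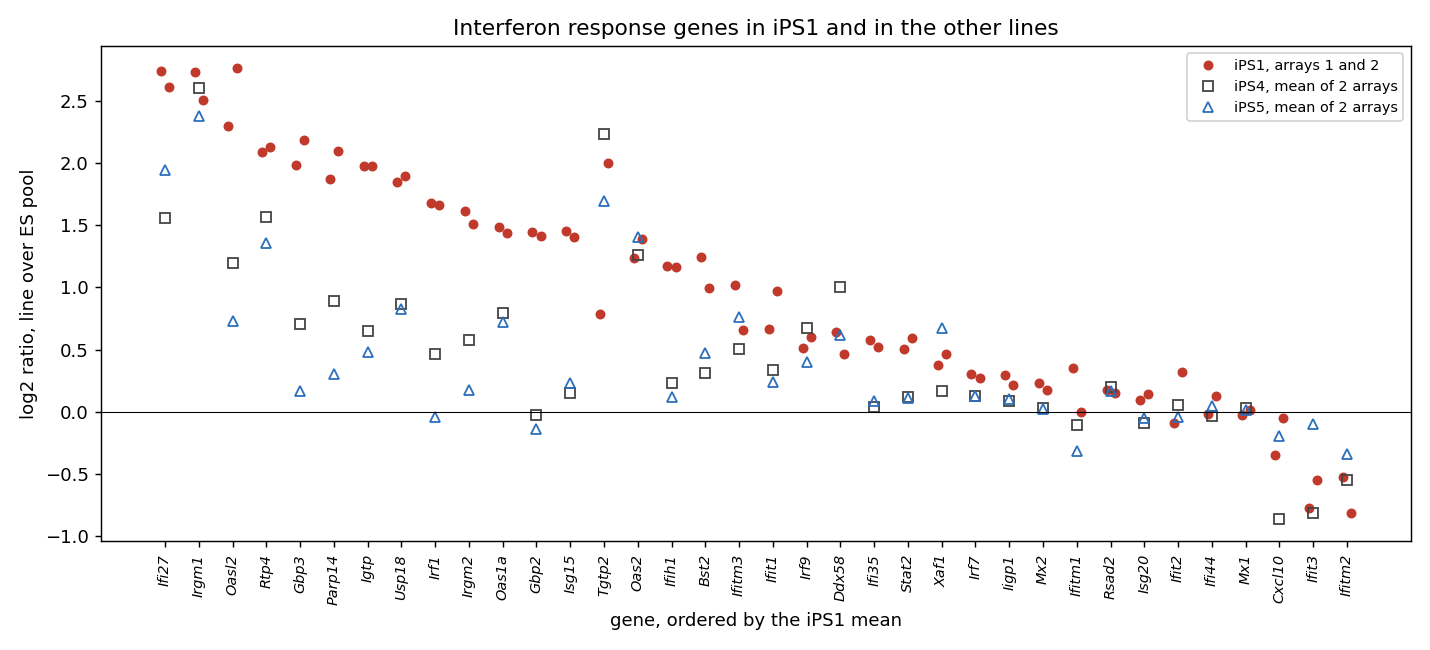
Log2 ratio of each line over the ES pool (vertical) for the 36 interferon response genes, ordered by the iPS1 mean; filled circles are arrays 1 and 2 of iPS1, and squares and triangles the means of iPS4 and iPS5. From Gbp3 to Bst2 most iPS1 points lie above both other lines, while Irgm1, Tgtp2 and Oas2 are high in all 3.

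MHC class I antigen presentation genes, many of them also interferon-inducible, were more often higher than lower. Of 14 measured, 8 were higher and 1 lower, where 21.5% and 21.2% of all genes were. The median was 0.35 in iPS1, -0.13 in iPS4 and -0.17 in iPS5. Of the 14, 10 were apart as higher in iPS1, against 4.95% of all genes. The immunoproteasome subunit Psmb8 had 1.83 and 2.00 (1.91 ± 0.12, adjusted p = 1.67e-06), and 0.20 and -0.10 in iPS4 and iPS5. The peptidase Erap1 had 0.99, the peptide transporter subunit Tap2 0.69, the subunits Psmb9 and Psmb10 0.59 and 0.47, and the proteasome activator Psme1 0.52. H2-K1, a classical class I heavy chain, had 0.29 and 0.27 in iPS1, and means of -0.78 and -0.83 in iPS4 and iPS5, but its probes disagreed, with 1 called higher and 1 lower of 3. The H2 genes are close copies of one another, so their probes may not be specific. B2m, the light chain that every class I molecule needs, was the member that was lower, at -0.79 and -0.47 (-0.63 ± 0.23, adjusted p = 2.86e-05), or -0.40 with the mean of its 3 probes.

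Genes of the primitive streak and mesoderm were higher in iPS1. Of 24 measured, 13 were higher and 1 lower, 8 of them beyond 2-fold, against 21.5% and 0.618% of all genes. After T (above), Gsc had 2.26 and 2.50, with the ES channel above background on 1 of 2 arrays. Wnt3, the ligand that starts the streak, had 1.60 and 1.74 (1.07 with the mean of its probes), Eomes, a T-box factor of the streak and definitive endoderm, 1.54 and 1.67, Foxa2, an endoderm and node factor, 1.57 and 1.63, Wnt8a 1.63 and 1.38, Fgf8 1.45 and 1.41, and Mixl1 1.26 and 1.00. For factors of later mesoderm the values were small: Mesp1 had 0.33 and was called, while Tbx6 (0.07), Msgn1 (0.02) and Cdx2 (0.03) were not, and Hand1 was lower at -0.79. The summed normalized signal of the 24 genes was 6089 and 5178 in iPS1 and 3085 and 2779 in the ES pool, that is 197% and 186% of ES. These sums hold the offset of 50 added to each gene in background correction, which draws such percentages toward equality. In RNA from a whole culture, more cells of a kind and more RNA per cell cannot be told apart.

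The streak genes with the largest values also differed between the lines. T had 3.71 in iPS1, 3.07 in iPS4 and 0.62 in iPS5, and both differences were called (adjusted p = 0.00769 against iPS4 and 3.18e-05 against iPS5). Gsc had 2.38, 0.84 and 0.10 in the same order, Eomes 1.60, 0.95 and 0.34, Foxa2 1.60, 0.74 and 0.02, and Mixl1 1.13, 0.32 and 0.04. In total 9 of the 24 genes were apart as higher in iPS1 and 1, Bmp4, as lower, against 4.95% and 3.21% of all genes. Wnt8a, at 1.50, 1.21 and 0.20, was not among them.

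Wnt target and feedback genes were higher or not called, with 10 of 19 higher and none lower by limma, also at an unadjusted p under 0.05, and a median of 0.21. Of all genes, 21.5% were called higher and 21.2% lower. Those with the largest values were Sp5, Axin2 (1.81 and 2.55, 2.18 ± 0.52, adjusted p = 9.8e-07), Znrf3, a ligase that removes Wnt receptors (0.72 and 0.76), the co-receptor Lrp6 (0.62 and 0.76), and the nuclear effectors Lef1 (0.76 and 0.73), Tcf7 (0.40 and 0.48) and Ctnnb1 (beta-catenin, 0.31 and 0.75). Ccnd1 (-0.02), Lgr5 (0.01), Nkd1 (0.05) and Rnf43 (-0.03) were not called, so the list split, with large values in 2 genes. Only 1 of 4 probes of Lef1 and 1 of 3 of Lrp6 was called, and with the mean of a gene's probes these had 0.21 and 0.28. Axin2 had 2.18 in iPS1, 1.61 in iPS4 and 0.61 in iPS5, and Sp5 3.37, 2.85 and 0.57. The letters CTTTGAA, part of the TCF and LEF site, stood on either strand in the promoter of 2 of 11 list members in the RefSeq table (18.2%), of 3 of 19 streak genes (15.8%), and in 5.93% of all promoters. One window is shown because T gave the largest value of the streak list, with the motif in capitals as its reverse complement.
T (chr17:8434173-8434232, plus strand): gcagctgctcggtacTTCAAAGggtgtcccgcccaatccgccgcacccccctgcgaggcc

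Markers of the primed epiblast were also higher in iPS1, with 13 of 19 higher and 4 lower, where 21.5% and 21.2% of all genes were. Their median was 0.34 in iPS1, 0.00 in iPS4 and -0.13 in iPS5. Fgf5 had 2.70 ± 0.20 (adjusted p = 6.03e-07) in iPS1, and 1.50 and 0.27 in iPS4 and iPS5. The activin antagonist Fst had 1.42 and 1.27, the de novo methyltransferase Dnmt3b 0.75 and 0.70, and the POU factor Pou3f1 (Oct6) 0.72 and 0.37. Cer1, a secreted Nodal and Wnt antagonist, had 0.71 and 0.60. Its ES channel was not above background on either array, so it was at least 1.53-fold higher. Otx2, a factor of the primed state, had 0.12 and 0.44 in iPS1, with means of -0.92 and -1.25 in iPS4 and iPS5. The 4 lower members were Zic2 (-0.59), Dnmt3a (-0.54), Sfrp2 (-0.25) and Cldn6 (-0.21). In all, 11 of the 19 were apart as higher in iPS1, against 4.95% of all genes. The primed list shares Lef1 with the Wnt list and Fst with the Nodal list. It also holds Fgf8, given above with the streak genes, so these lists are not independent.

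Naive pluripotency genes went in both directions, with 9 of 28 higher and 16 lower, where 21.5% and 21.2% of all genes were. The list median was -0.33 in iPS1, 0.10 in iPS4 and 0.09 in iPS5. Of the 28 genes 13 were apart as lower in iPS1 and 2 as higher, against 3.21% and 4.95% of all genes. After Zfp42, the lower members with the largest values were Fgf4 (-1.12 and -0.95), the growth factor by which ES cells stimulate their own ERK pathway, Lefty1, a Nodal antagonist (-0.91 and -1.03), and Utf1 (-0.64 and -0.93). The naive transcription factors Esrrb (-0.82 and -0.63), Klf2 (-0.76 and -0.57), Klf5 (-0.38 and -0.41), Nr0b1 (-0.60 and -0.18), Tbx3 (-0.33 and -0.42) and Tfcp2l1 (-0.43 and -0.25) were lower on both arrays. For Klf5 the other 2 probes were called higher, so its direction depends on the probe, and Nr0b1 was not called with median centring (adjusted p = 0.125), without a dye term (0.236) or on the iPS1 arrays alone (0.0768). Several of these were above the ES pool in the other lines. Klf5 had -0.39 in iPS1, 0.25 in iPS4 and 1.68 in iPS5, Tbx3 -0.38, 0.44 and 1.63, Nr0b1 -0.39, 0.62 and 1.51, and Esrrb -0.73, 0.13 and 0.44. Esrrb, with 1 of 2 probes called, had -0.32 in iPS1 with the mean of its probes.

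The naive members that were higher included Nanog, at 0.66 and 0.46 (0.56 ± 0.14, adjusted p = 8.39e-05), Sall4 at 0.73 and 0.60 (0.29 with the mean of its probes), and Dppa3 (Stella) at 1.05 and 1.48. Dppa3 was apart as higher in iPS1, with 1.26 in iPS1, 0.94 in iPS4 and -0.86 in iPS5, while Nanog, at 0.56, 0.59 and 0.80, was not apart. Dppa5a, one of the brightest genes, had 0.31 and -1.36 and was not called. Without iPS1 array 1 the number of naive genes called higher was 4 in place of 9, and without array 2 it was 6. The lower count was 14 without either array, and it was 9 with median centring in place of loess. Of the naive genes called lower in the main fit, 8 lay outside the brightest 10% of genes.

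**Figure D3:**
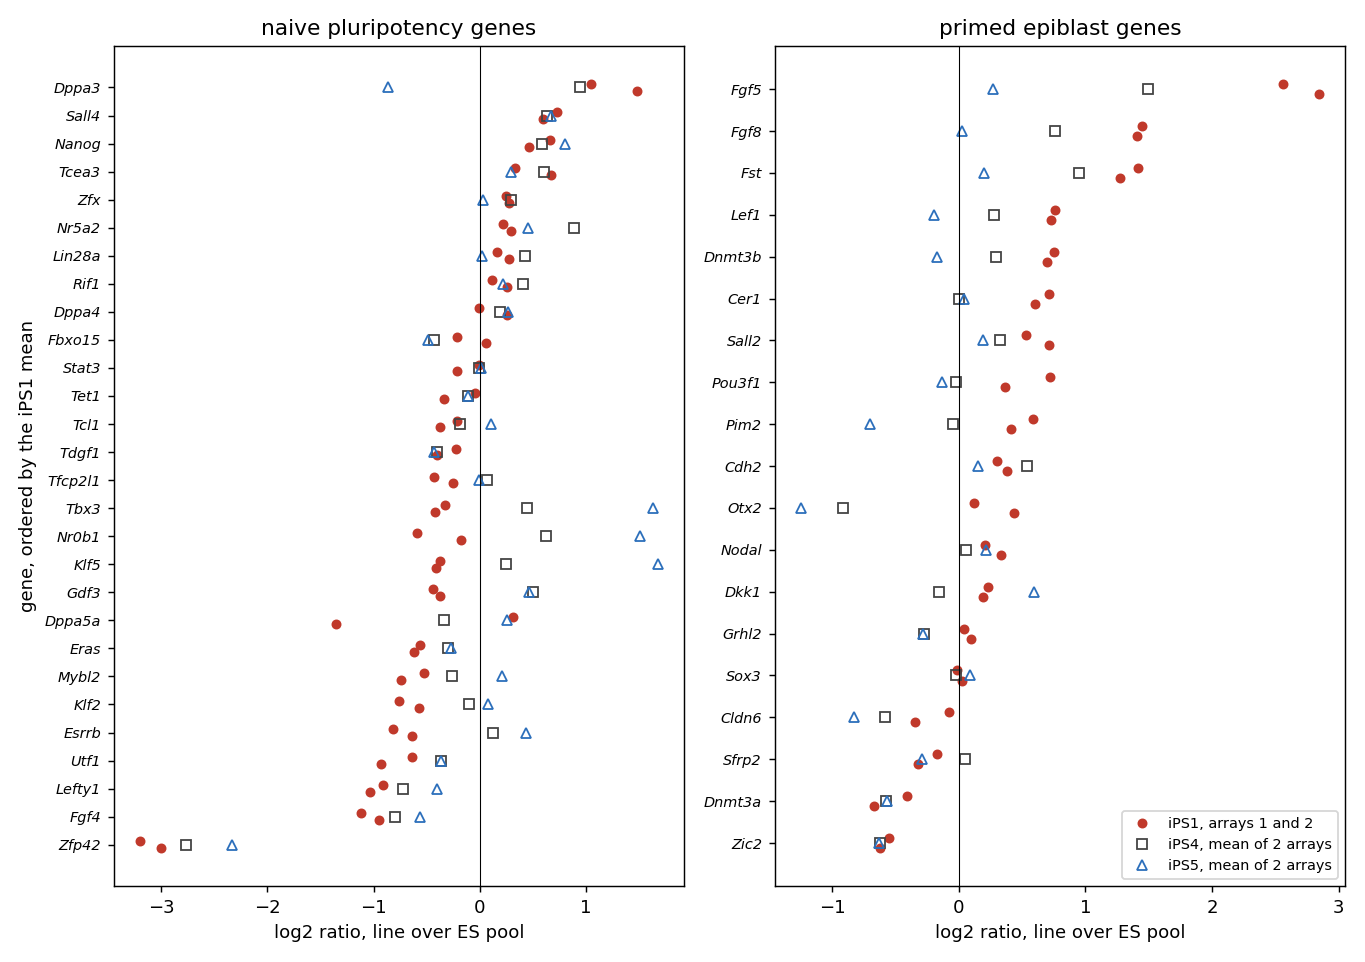
Log2 ratio of each line over the ES pool (horizontal) for the naive pluripotency genes (left) and the primed epiblast genes (right), ordered by the iPS1 mean; filled circles are arrays 1 and 2 of iPS1, and squares and triangles the means of iPS4 and iPS5. On the left, Klf5, Tbx3, Nr0b1 and Esrrb of iPS1 lie left of 0 with the other lines to the right, and on the right Fgf5, Fgf8 and Fst of iPS1 lie to the right of both.

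The transduced reprogramming factors did not stand uniformly above the ES pool. Probe positions were not used, so transcripts of the vectors and of the genes in the genome cannot be told apart. Myc was higher, at 0.54 and 0.71 (0.62 ± 0.12, adjusted p = 3.96e-05), on all 3 of its probes. Klf4 was lower, at -0.74 and -0.66 (-0.70 ± 0.057, adjusted p = 2.19e-05). Pou5f1 (Oct4) had -0.47 and -0.55 and Sox2 -0.52 and -0.14, both called lower (adjusted p = 0.00352 and 0.00144). Pou5f1 was not called without iPS1 array 1 or array 2 (adjusted p = 0.092 and 0.0641), nor was Sox2 without array 1 (adjusted p = 0.0738), and 4 further settings took the call from Sox2 (adjusted p = 0.0523 to 0.144). All 4 factors were apart as lower in iPS1, against 3.21% of all genes. Klf4 had -0.70 in iPS1, 0.53 in iPS4 and 0.89 in iPS5, Pou5f1 -0.51, 0.24 and 0.66, Myc 0.62, 1.45 and 1.19, and Sox2 -0.33, 0.08 and -0.07.

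Of the 12 transduced TFIID subunits, 8 were called higher and 1 lower, where 21.5% and 21.2% of all genes were, and Taf7 alone was beyond 2-fold. The shares of all genes are not matched to the subunits for brightness. Taf7 had 1.09 and 1.43 (1.26 ± 0.24, adjusted p = 3.28e-06) on all 3 of its probes, and 1.01 and 0.75 in iPS4 and iPS5. Taf9 had 0.33 and 0.59, Taf4 0.36 and 0.34, and the other 5 that were higher, Taf11, Taf3, Tbp, Taf12 and Taf13, had means of 0.16 to 0.25. Taf6 was lower, at -0.20 and -0.29. Taf5 (0.07) and Taf10 (-0.06) were not called, and the iPS1 channel of Taf4b (0.07) was not above background. These small differences depended on both arrays, since 4 subunits were called higher without array 1 and 3 without array 2, and Taf3 was not called with the mean of its probes (adjusted p = 0.0526). Among 14 other subunits of TFIID and related complexes, none of which was transduced, 6 were higher and 4 lower. Among 17 general initiation factors 10 were higher and 3 lower. These last counts depended on the processing, with 1 higher and 0 lower under median centring, and 3 and 1 with a normexp offset of 0.

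**Figure D4:**
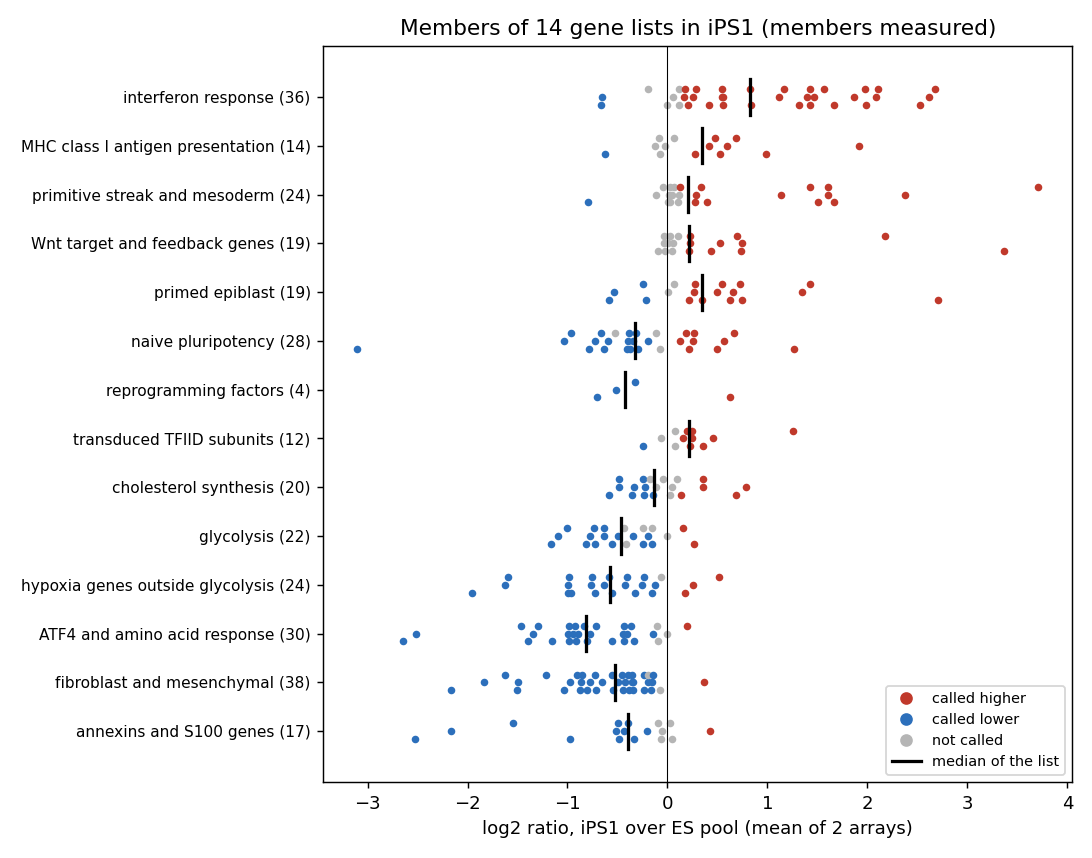
Mean log2 ratio of iPS1 over the ES pool (horizontal) for the measured members of 14 gene lists, 1 point per gene coloured by call, with a black bar at the median of each list. The interferon list has the highest median (0.83) and the ATF4 list the lowest (-0.82).

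Targets of ATF4, the transcription factor that raises amino acid synthesis and transport when cells lack amino acids or are under stress, were lower in iPS1. Of 30 measured, 26 were lower and 1 higher, where 21.2% and 21.5% of all genes were. Beyond 2-fold 7 were lower, against 0.749% of all genes, and the median was -0.82. Promoters with the letters TGATGNAA, which belong to the site where C/EBP and ATF factors bind together, are shown for the strongest members. The motif stood on either strand in 9 of 26 list promoters (34.6%) and in 4.51% of all promoters.
Nupr1 (chr7:126625547-126625606, minus strand): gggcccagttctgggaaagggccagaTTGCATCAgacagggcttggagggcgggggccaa
Chac1 (chr2:119351023-119351082, plus strand): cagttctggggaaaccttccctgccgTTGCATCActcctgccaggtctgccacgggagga
Asns (chr6:7693210-7693269, minus strand): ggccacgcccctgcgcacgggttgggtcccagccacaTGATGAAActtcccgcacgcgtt

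Nupr1 had -2.78 and -2.52 (-2.65 ± 0.18, adjusted p = 3.06e-06), and Chac1 -2.41 and -2.61 (-2.51 ± 0.14, adjusted p = 3.05e-06). Asns, asparagine synthetase, had -1.46 and -1.23, and the pro-apoptotic factor Ddit3 (CHOP) -1.43 and -1.36. The pseudokinase Trib3 had -1.39 and -1.21 and the serine synthesis enzyme Psat1 -1.08 and -1.24. Atf4 itself had -0.55 and -0.57 (adjusted p = 4.76e-05). The arrays lay close together for each. The list median was -0.87 in iPS4 and -0.57 in iPS5. In iPS1, 1 of the 30 genes was apart as higher and 3 as lower, against 4.95% and 3.21% of all genes. Asns had -1.35 in iPS1, -1.49 in iPS4 and -1.42 in iPS5. Of the 26 members called lower, 14 lay outside the brightest 10% of genes.

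Genes induced by low oxygen were lower as well, with 20 of 24 lower and 3 higher among those outside glycolysis, and a median of -0.57. Of all genes, 21.2% were lower and 21.5% higher. Adm had -2.03 and -1.88, Ero1a, which oxidizes proteins in the endoplasmic reticulum, -1.70 and -1.55, the mitophagy factor Bnip3 -1.60 and -1.59, and the angiogenic ligand Vegfa -0.79 and -0.74. Epas1 (HIF-2 alpha) was higher, at 0.44 and 0.59. Its mean was 0.51 in iPS1, 1.71 in iPS4 and 2.19 in iPS5, and it was apart as lower in iPS1. Bnip3 had -1.60 in iPS1, -2.39 in iPS4 and -2.85 in iPS5 and was apart as higher in iPS1. Of 22 glycolysis genes 15 were lower and 2 higher. The lower ones included the phosphofructokinases Pfkp (-1.18 and -1.14) and Pfkl (-0.88 and -1.13) and the aldolase Aldoc (-0.98 and -1.21). The arrays differed over the list, with medians of -0.28 on array 1 and -0.75 on array 2. Its summed normalized signal was 104% and 50% of the ES pool. The brightest enzymes gave no usable value, since Ldha had 1.11 and -1.42 and Pgk1 0.70 and -1.56 on arrays 1 and 2. With the mean of a gene's probes Pfkp had -0.52 and Aldoc -0.50. Of the 15 glycolysis genes called lower, 6 lay outside the brightest 10% of genes.

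Fibroblast and mesenchymal genes, listed because donor and feeder cells are fibroblasts, were lower in iPS1 in 35 of 38 cases, with 1 higher and a median of -0.52. Of all genes, 21.2% were lower and 21.5% higher. Decorin (Dcn) had -1.87 and -1.80 (-1.84 ± 0.054, adjusted p = 3.05e-06), lumican (Lum) -1.67 and -1.57, the intermediate filament Vim -1.73 and -1.29, and the collagen Col1a1 a mean of -1.03 ± 0.044. Tagln, a smooth muscle actin-binding protein, was the member that was higher, at 0.53 and 0.21. The summed normalized signal of the 38 genes, which also holds the offset, was 17767 and 15630 in iPS1, against 33922 and 27286 in the ES pool. That is 52.4% and 57.3% of ES. Of the defining markers, Col1a1, Col1a2, Col3a1, Thy1, Dcn, Lum, Postn, Pdgfrb and Twist2 were called lower and Prrx1 was not (-0.55 and 0.17), Postn with its other probe called higher, and all 10 were above background in both channels. The part of these cells' RNA in the other genes that were lower was not tested. The list median was -0.41 in iPS4 and -0.12 in iPS5, and 13 members were apart as lower in iPS1, against 3.21% of all genes. Among them Vim had -1.51, -0.28 and -0.18 in the order iPS1, iPS4 and iPS5. Dcn and Vim each had 1 of 2 probes called, and with the mean of their probes had -0.89 and -0.75.

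Annexins and S100 genes, calcium-binding proteins that are abundant in fibroblasts and epithelia, were lower in 11 of 17 cases and higher in 1. Of all genes, 21.2% were lower and 21.5% higher. Anxa2 had -2.74 and -2.32, S100a6 -2.14 and -2.19, Anxa1 -1.59 and -1.50, and Anxa5 -0.93 and -1.01. S100a10, the partner of Anxa2, was higher at 0.29 and 0.56. The list shares S100a4 and S100a6 with the fibroblast list.

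Imprinted genes, which are expressed from 1 parental copy, went both ways, with 11 of 29 higher and 10 lower, where 21.5% and 21.2% of all genes were. Plagl1 had 2.20 and 1.89, Nnat 1.14 and 1.07, and Peg3 0.73 and 0.52. Meg3, the maternally expressed RNA of the Dlk1 cluster, had 1.01 and 0.80 (0.90 ± 0.14, adjusted p = 1.34e-05) in iPS1, with 4 of its 5 probes called higher and a mean over its probes of 0.52. Its ratios were -2.58 in iPS4 and 0.28 in iPS5. Cdkn1c and Phlda2, growth-restraining neighbours in the Kcnq1ot1 domain, were lower in iPS1, Cdkn1c at -1.43 and -1.21 and Phlda2 at -1.50 and -1.58. In iPS4 and iPS5, Cdkn1c had -0.08 and 0.07 and Phlda2 -0.09 and -0.32, and both genes were apart as lower in iPS1. Igf2 (-2.41) and H19 (-0.65), the neighbouring growth factor and noncoding RNA, were both lower, with -2.38 and -1.59 for Igf2 in iPS4 and iPS5.

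Genes of the X-linked Xlr and Rhox clusters were lower than the ES pool in iPS1, and 6 of the 10 measured, most of them Xlr genes, were less low there than in both other lines. In iPS1 all 10 means were below 0 and 9 were called lower, against 21.2% of all genes. The median was -0.70 in iPS1, -2.49 in iPS4 and -1.49 in iPS5. Xlr4b had -1.14 and -0.70, a mean of -0.92, with -5.21 in iPS4 and -3.72 in iPS5. Xlr5c had -1.42, -5.16 and -3.21 in the order iPS1, iPS4 and iPS5, and Xlr3c -0.98, -4.32 and -2.95. Rhox13 went another way, at -0.63, -1.06 and -0.44. With the mean of its 2 probes Xlr4b had -0.49 in iPS1. Members of the Xlr family are near-identical copies, so a probe may read several of them. The Y-linked translation factor Eif2s3y had -0.59 and -0.22 in iPS1, and means of -4.23 in iPS4 and -2.91 in iPS5. By limma Eif2s3y was called lower in iPS1 (adjusted p = 0.00514). That call was lost with a normexp offset of 0 (0.108), plain background subtraction (0.109), median centring (0.0807) and the iPS1 arrays alone (0.0529). Without iPS1 array 1 its value was -0.20. The 7 genes of chromosome Y above background had medians of -0.0154 in iPS1, -0.0471 in iPS4 and -0.0299 in iPS5. Of 9 sex-linked genes measured, 1 was higher and 1 lower in iPS1.

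Germ line and meiosis genes were lower in 16 of 30 cases and higher in 7, where 21.2% and 21.5% of all genes were. The share that was higher thus lay near that of all genes. Smc1b, a meiotic cohesin, had -1.36 and -1.28, the meiotic entry factor Stra8 -1.20 and -1.09, and Hormad1 -1.11 and -0.73. The higher members included the early germ cell factors Nanos3 (0.89), Tfap2c (0.71) and Prdm1 (0.58) and the RNA-binding protein Dazl, whose other probe was called lower, at 0.53 in iPS1, -1.51 in iPS4 and -0.37 in iPS5. Cholesterol synthesis genes were split in iPS1, with 5 of 20 higher, led by Hmgcs1 (0.77 and 0.79), and 9 lower, led by Msmo1 (-0.56 and -0.62). Here too the share that was higher lay near the 21.5% of all genes. With the mean of a gene's probes Hmgcs1 had 0.36 and Msmo1 -0.27. Their median was -0.13 in iPS1, -0.44 in iPS4 and -0.43 in iPS5, and 13 of the 20 were apart as higher in iPS1, against 4.95% of all genes.

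Markers of other lineages had summed normalized signals closer to those of the ES pool. Each sum holds the offset of 50 added to each gene in background correction, which draws the percentages of lists of dim genes toward equality. Neural genes were higher in 5 of 20 cases and lower in 4, with a summed signal of 99.7% and 95.7% of the ES pool on the arrays. Primitive endoderm genes were lower in 10 of 24 and higher in 2, with sums of 86.7% and 93.1%, trophectoderm genes lower in 9 of 19 and higher in 2, with sums of 81.2% and 80.8%, and endothelial and blood genes lower in 6 of 20 and higher in 2, with sums of 91.5% and 88.8%. Lower beyond 2-fold were the keratin Krt18 (-1.17), the proteoglycan Srgn (-1.47), the thrombin receptor Thbd (-1.34) and the surface protein Cd34 (-1.07), and higher beyond 2-fold were Eomes and Foxa2, which belong to the streak list too. For S phase and mitosis, 14 of 33 were higher and 7 lower, with none beyond 2-fold. Oxidative phosphorylation had 3 of 23 higher and 11 lower, the p53 targets 4 of 24 higher and 8 lower, and the DNA methylation enzymes 5 of 15 each way. Nodal and Lefty signalling had 8 of 19 each way, the BMP and Id genes 7 of 18 higher and 1 lower, led by Id1 (1.30 and 1.65), and the LIF-STAT3 and FGF-ERK feedback genes 5 of 25 higher and 11 lower, led by Ier3 (-1.43). Heat shock and unfolded protein response genes were higher in 6 of 24 and lower in 10, and genes of the 2-cell-like state higher in 4 of 12 and lower in 3. Several of these shares lie near the 21.5% and 21.2% of all genes and say nothing particular about the lists. Some of the counts also depended on the processing. With median centring, 7 S phase and mitosis genes were higher and 0 lower. Oxidative phosphorylation then had 1 higher and 3 lower, and Nodal and Lefty signalling 3 each way.

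Across all genes, the 8 with the largest mean difference from the other lines were taken in each direction, several of them from the lists above. Higher in iPS1 were Xlr4b, Eif2s3y, Xlr5c, Xlr3c, Xlr4c, Meg3, Gsc and Psmb8, and of these only Meg3, Gsc and Psmb8 were also above the ES pool. Lower in iPS1 were Gbx2, Coil, Aard, Apoe, Nr0b1, Epas1, Lrrc34 and Lama1. Gbx2, a homeobox gene downstream of LIF, had 0.31 and 0.41 in iPS1 and was not called (adjusted p = 0.0511), while its means were 2.29 in iPS4 and 1.64 in iPS5. Apoe, a lipid carrier, had -0.56 and -0.97 in iPS1, and means of 0.41 and 1.06 in iPS4 and iPS5. Coil, the scaffold of Cajal bodies, had 0.60 and 0.43, or 0.25 with the mean of its probes, and means of 1.43 and 2.72 in iPS4 and iPS5.

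By chromosome, the 802 genes of chromosome 8 had a median of -0.0715 in iPS1, -0.0596 on array 1 and -0.0887 on array 2. The medians of the other autosomes and of chromosome X lay between -0.0242 (chromosome 17) and 0.0256 (chromosome 13). On chromosome 8, 14.1% of genes were called higher and 38.7% lower, against 24.3% higher and 23.9% lower over the genes placed on chromosomes. Its median was -0.0865 in iPS4 and -0.0373 in iPS5. Among genes brighter than the median, a split chosen after seeing the data, it was -0.1427 in iPS1. Each line was set against the same ES pool, so which of the RNAs differs cannot be told apart from these ratios.

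**Figure D5:**
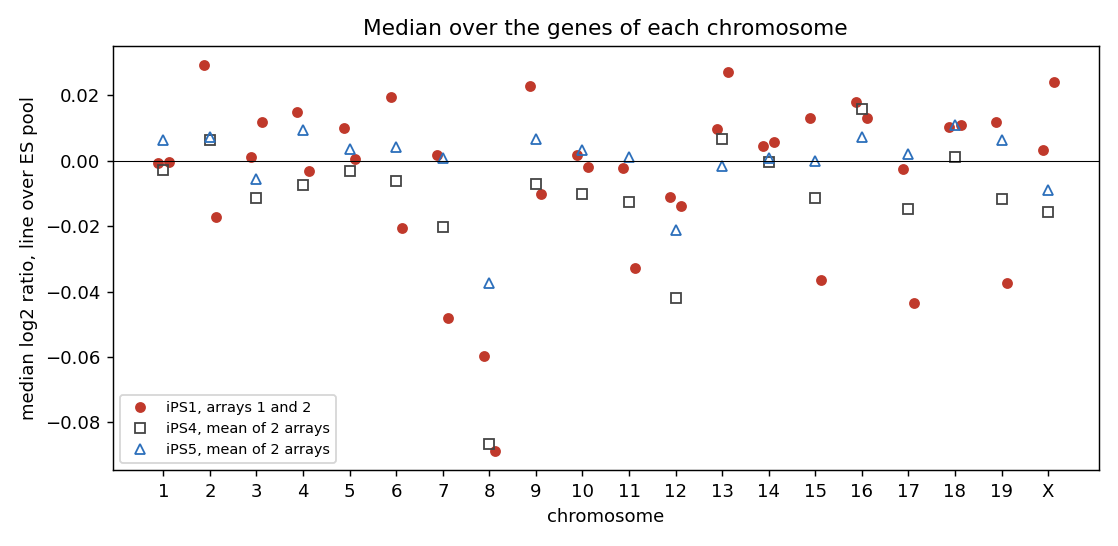
Median log2 ratio over the genes of each chromosome (vertical) by chromosome, with filled circles for arrays 1 and 2 of iPS1 and squares and triangles for the means of iPS4 and iPS5; chromosome Y, with 7 genes, is left out. Chromosome 8 lies lowest in all 3 lines, at -0.0715 in iPS1.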

How the data were processed

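RNA of iPS1 and of the ES pool was read on 2-colour oligonucleotide arrays of 45220 spots, with 41174 gene probes and 4046 control spots. The authors deposited raw scanner intensity per channel, not normalized, per the file headers. A log2 ratio per spot, processed by the authors, was also deposited, and its normalization is not given in the sources used here. They run as iPS over ES, and the arrays of iPS1 correlated with r = 0.941 in them. The authors' table of comparisons, with its deposited p-value and mean log2 ratio, was not used.

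All fits started from the raw intensities (R 4.3.3, limma 3.58.1, statmod 1.5.0). After normexp background correction with an offset of 50, loess with span 0.3 and weight 0 for control spots was fitted within each array. Ratios were turned to iPS over ES. The model had 1 coefficient per line and a dye term over all 6 arrays, with 2 residual and 4.9 prior degrees of freedom, and limma's moderated test was two-sided. The number of arrays limits the precision, and a printed SD of 2 arrays also holds the dye effect, which was called for 7631 probes. Above background means over percentile 95 of the 604 spots of a dim control reporter in that channel. Where a channel was not above background on either array, a fold is a bound. Symbols were updated through the GRCm38.p6 gene table (30365 probes current, 3726 updated, 95 not in it, 6988 without a symbol). Promoter sequences and motif shares come from RefSeq tables of that build. The fit was tested on simulated data with known changes.

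The members and the 33 gene lists were chosen with earlier results of these data known. Named genes were the 15 highest and 15 lowest called with 1 sign on both arrays, Nanog, Zfp42, Esrrb and the 16 genes transduced, up to 4 members of each list with the smallest p, and the 8 highest and 8 lowest apart from both other lines, without predicted transcripts. Further list members are given as examples. Alternatives covered background correction, normalization, dim probes, probe choice, covariates and left-out arrays.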

Additional observations from a re-analysis of the deposited data

Results flagged for a closer look

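These 16 genes are given because their values in iPS1 differed from those in iPS4 and in iPS5, both differences being called in the same direction by limma's contrasts with Benjamini-Hochberg adjustment. The difference given is the iPS1 mean minus the mean of the other lines, in log2 units, with the ES pool cancelling. It was 3.54 for Xlr4b, 3.17 for Eif2s3y, 2.77 for Xlr5c, 2.66 for Xlr3c and 2.28 for Xlr4c, which were lower than the ES pool in all 3 lines and least so in iPS1. It was 2.05 for Meg3, 1.91 for Gsc and 1.86 for Psmb8.

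The difference was -1.60 for Gbx2, -1.56 for Coil, -1.51 for Aard, -1.51 for Apoe, -1.45 for Nr0b1, -1.44 for Epas1, -1.43 for Lrrc34 and -1.42 for Lama1. Aard had -0.51 in iPS1, 0.55 in iPS4 and 1.45 in iPS5. Lrrc34 had -0.35, 1.47 and 0.69 in the same order, and Lama1, a basement membrane laminin, -0.82, 0.18 and 1.02. With the mean of a gene's probes the difference was 1.81 for Xlr4b, 0.95 for Meg3, -0.81 for Coil, -0.51 for Epas1 and -0.74 for Lama1. None of the 16 was called apart with a normexp offset of 0. Groups of 2 arrays were too small for a check of single deviating samples.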

How the results depend on the processing

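All counts of calls depended on the processing, and their causes were not tested. With normexp offset 0, 7401 probes were called, with 1947 genes higher and 1819 lower (206 and 257 beyond 2-fold), no genes were apart in either direction (0 higher and 0 lower by limma, with 1138 and 798 at an unadjusted p under 0.05), and the median of chromosome 8 was -0.1154. Plain subtraction gave 9316 probes, 2429 and 2271 genes (199 and 248 beyond 2-fold), 16 and 2 genes apart and -0.1093. Median centring gave 7102 probes, 1940 and 1627 genes and 69 and 30 apart. Without a dye term these were 8242, 2219 and 2039, and 164 and 86. The iPS1 arrays alone gave 6592 probes and 1876 and 1606 genes. Scaled arrays gave 89 genes lower beyond 2-fold and 351 apart lower, and the mean of a gene's probes 73 higher beyond 2-fold and 0.0131 for the highest other chromosome. Among genes brighter than the median chromosome 8 had -0.1427 and the highest other chromosome 0.06. With the spread among the lines, 0 probes and 0 genes were called (1726 genes at an unadjusted p under 0.05). The authors' processed values, a filter on dim probes and fits without the iPS4 or iPS5 arrays left these counts within 1.5 times. Leaving out 1 array gave 6684 to 8413 probes, 2039 to 2261 genes higher, 1546 to 2206 lower, 165 to 1498 apart higher and 126 to 991 apart lower. Without iPS1 array 1, 260 and 143 genes were apart, without array 2 165 and 126, without iPS4 array 1 233 and 171, without its array 2 364 and 189, without iPS5 array 1 1215 and 991, and without its array 2 1498 and 921. A lone array was assumed to vary like the others. Of all named genes that were called, 126 of 155 stayed called under every setting that kept the array spread, and Zscan4c (0.0802) and Flt1 (0.1721) turned sign with the mean of a gene's probes. Counts for the interferon, MHC class I, Wnt, primed and streak genes (higher) and the fibroblast, hypoxia, annexin, germ line and Xlr genes (lower) stayed within 1.5 times of the values given under those settings. No separate paired analysis was run, because iPS1 and ES RNA share each array and every ratio already pairs them within an array.

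Depth is not defined for arrays. Of 18295 genes, 16042 were above background. In the 183 brightest genes the median SD of the iPS1 arrays was 0.37, against 0.111 in the next 1647, and 49 of the 183 differed by over 1 between the arrays, 46 of them with opposite signs.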

Other observations

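Genes outside the lists, chosen after their values were seen, are given here as values. Further interferon-inducible genes were higher in iPS1: Nmi had 1.77 and 1.79 on arrays 1 and 2, Parp9 1.54 and 1.73, Parp12 1.51 and 1.61, Trim21 1.26 and 1.55, Cmpk2 1.41 and 1.24, Rnf213 1.12 and 1.24, and the kinase Eif2ak2 (PKR), which senses double-stranded RNA, 1.30 and 1.29. All but Eif2ak2 were apart as higher in iPS1. Parp12 had a mean of 1.56 in iPS1, 0.35 in iPS4 and -0.06 in iPS5. Among transfer RNA synthetase genes, which ATF4 induces, Aars had a mean of -1.24, Sars -1.21 and Cars -1.07, with -1.04 for Aars and -1.07 for Cars in iPS4. The metallothioneins Mt1 and Mt2 had -1.14 and -1.28.

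Other genes picked in this way were lower. The chemokine Ccl2 had -1.66 and -1.53, Ccl7 -1.44 and -1.33, the protease inhibitor Timp1 a mean of -1.70, tenascin C (Tnc) -1.78 and -1.58, and the membrane protein Emp1 -1.99 and -1.76. In iPS4 and iPS5 Ccl2 had -0.68 and -0.27. Serpinb2 was at least 3.3-fold lower in iPS1, whose channel was not above background on either array. Smchd1, a chromatin protein of X inactivation and imprinting, had -1.22 and -1.17 at its brightest probe, with -0.30 and -0.10 in iPS4 and iPS5, but of its 7 probes 3 were called higher and 1 lower.

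Very bright genes and a few single spots gave values that the arrays did not share. Eef1a1 had 1.40 and -1.34 on arrays 1 and 2, and Npm1 1.23 and -1.18, and neither was called. Fnbp4, at 0.36 and 3.56, and Ctrl, at -3.06 and -0.11, were called (adjusted p = 0.0136 and 0.0398 by limma), although each rests on 1 array.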
